A study of Sus scrofa with 9 samples.

Results

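Genes that mark the muscular wall of the seminiferous tubule and the lining of blood vessels were followed across testis biopsies of boars. The list held 8 genes, 5 of smooth muscle (ACTA2, MYH11, DES, CNN1 and TAGLN) and 3 of endothelium (PECAM1, VWF and CDH5). They were found on the array by symbol, as the probe's gene name or in parentheses in its description, without any use of the measured signals. The search gave 21 of the 60889 non-control probes and 6 of the 8 genes: ACTA2 had 7 probes, DES and PECAM1 had 4 each, and CNN1, VWF and CDH5 had 2 each. No probe carried the symbol of MYH11 or TAGLN, so these 2 genes were not analysed here. In the reference annotation of Sscrofa11.1, ACTA2 lies on chromosome 14, one of the chromosomes exchanged in the translocation studied. None of the other measured genes lies on chromosome 1 or 14: CNN1 is on chromosome 2, VWF on 5, CDH5 on 6, PECAM1 on 12 and DES on 15.

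Each seminiferous tubule is wrapped in peritubular myoid cells, flat contractile cells with the actin and myosin equipment of smooth muscle, whose slow contractions move fluid and sperm towards the rete testis. Smooth muscle of the same kind surrounds arteries and arterioles between the tubules. Endothelial cells line all vessels of that interstitial space, and through them hormones of the neighbouring Leydig cells reach the blood.

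The biopsies formed 3 groups of 3 single-colour arrays. The t(1;14) arrays were all of 1 Landrace × Duroc crossbred boar that carried a balanced reciprocal translocation between chromosomes 1 and 14 and had oligo-astheno-teratospermic semen. The oligospermic arrays were of a boar with a normal male karyotype and a low sperm count, and the controls were of fertile boars of normal semen quality. The methods name 3 fertile boars and 3 extractions per animal, while the results speak of a pool, so which control boar an array holds is not stated. With 1 carrier and, as far as the labels tell, 1 oligospermic boar, the tests measure the spread between biopsies and not between animals of a kind, and the translocation cannot be told apart from anything else particular to its carrier. The labels name neither an age nor a treatment for any group.

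Each of the 3 slides held 1 array of every group. Between 37087 and 40632 probes per array were well above background, which limits the precision of dim probes, and the arrays of a group correlated at 0.982 to 0.995. Of the 21 probes, 16 were well above background on all 9 arrays, 2 on some and 3 on none; no spot was saturated or marked as an outlier. The dark probes were 1 each of DES (first base at position 739 of its transcript), VWF (position 4546) and CDH5 (position 2623), which left VWF and CDH5 with 1 measured probe each. Levels are given below as log2 signal, and a probe's level was never set against that of another probe. Where a gene had several probes, the brightest stands for it and the others are given beside it.

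Probes of 60 bases carry these measurements, and the ones shown here, from the deposited array files, are a pair of DES probes that share sequence and probes on which a rise was measured. The DES probes overlap within the coding sequence, and capitals mark the 21 bases they have in common, so their values are not independent of each other. The positions stated in the array files would give 24 shared bases, so at least 1 of these 2 positions is not exact for the printed sequences.
DES probe at position 1336: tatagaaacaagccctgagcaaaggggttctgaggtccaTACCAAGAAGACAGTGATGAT
DES probe at position 1372: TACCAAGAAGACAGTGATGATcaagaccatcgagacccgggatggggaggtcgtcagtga
The other set shows the coding probes on which a rise was measured for PECAM1 and for VWF.
PECAM1 probe at position 556: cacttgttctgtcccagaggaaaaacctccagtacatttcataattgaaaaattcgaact
VWF probe at position 8303: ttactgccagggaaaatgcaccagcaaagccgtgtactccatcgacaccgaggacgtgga

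The comparison of t(1;14) with control asked how the testis of the carrier differed from a fertile testis. In the carrier PECAM1 and VWF rose and CNN1 fell, by 1.88-fold to 2.65-fold, while ACTA2, DES and CDH5 did not pass the test. The test was limma with Benjamini-Hochberg adjustment over 40643 probes at an adjusted p of at most 0.01. With the slide as a block only PECAM1 passed, at an adjusted p of 0.00974. Of the 6 genes 2 were higher and 1 lower without the block, where 31.2% of all probes passed, 15.6% in each direction. Counted by probe, 5 of the 18 tested passed, or 27.8%, which is close to the share of the whole array. No probe of the 6 genes also reached the absolute log2 fold change of 2 that the study's methods ask for, as 5.61% of all probes did. The differences below were thus moderate ones on an array where differences were common, and the median log2 fold change of all probes was 0.14. In bulk tissue fewer cells of a type and less RNA per cell cannot be told apart.

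ACTA2 encodes the smooth muscle actin of myoid cells and vessel walls. Its brightest probe, at position 1349, read 13.54, 14.30 and 14.44 in the controls and 14.03, 13.54 and 14.08 in t(1;14). The groups overlapped, and the log2 fold change was -0.21 (SE 0.28, n = 3 arrays per group, 95% CI -0.88 to 0.47, adjusted p = 0.561 by limma). The other 6 probes gave log2 fold changes between -0.55 and -0.21, none past the test. By their positions the probes at 880 and 903 overlap, as do those at 1437 and 1462, so these values are not independent of each other. Actin genes are much alike in their coding sequence, so which actin the coding probes read is uncertain. The interval leaves room for a fall or a small rise, and neither could be told from the spread between biopsies.

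CNN1 encodes calponin, an actin-binding protein of differentiated smooth muscle that restrains contraction. It read 8.18, 8.38 and 8.53 in the controls and 7.17, 7.59 and 7.07 in t(1;14). Every t(1;14) array lay below every control, and the log2 fold change was -1.09 (SE 0.18, adjusted p = 0.00362 by limma). With the slide as a block the adjusted p was 0.0134, although CNN1 was lower in t(1;14) on all 3 slides, by -0.59, -1.31 and -1.36. The second CNN1 probe, at position 1151, was well above background on 5 of 9 arrays only and gave -0.86 (adjusted p = 0.0644).

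DES encodes desmin, the intermediate filament of muscle cells. Its probes disagreed in size: the brightest, at position 2189, read 10.45, 11.31 and 11.24 in the controls and 10.80, 10.64 and 10.62 in t(1;14). Control 1 lay below all t(1;14) arrays there, and the log2 fold change of -0.31 did not pass (SE 0.24, adjusted p = 0.318 by limma). The overlapping probes shown above gave larger differences, with no overlap between the groups. The one at position 1336 read 6.31, 6.60 and 6.08 in the controls and 5.31, 5.92 and 4.90 in t(1;14), a log2 fold change of -0.96 (adjusted p = 0.0302). The one at position 1372 read 6.29, 6.75 and 6.42 against 5.42, 5.64 and 4.98, and its log2 fold change of -1.14 passed (SE 0.21, adjusted p = 0.0057), but not with the slide as a block (adjusted p = 0.0202). The direction was thus the same on all 3 measured probes, and the call depends on which of them stands for the gene and on the block.

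PECAM1 encodes CD31, an adhesion molecule at the junctions between endothelial cells that is also found on platelets and some leukocytes. It read 7.20, 7.62 and 8.03 in the controls and 8.97, 9.15 and 8.95 in t(1;14). The lowest t(1;14) array stood well clear of the highest control, and the log2 fold change was 1.41 (SE 0.22, 2.65-fold, adjusted p = 0.00299 by limma). The probe at position 556 read 7.08, 7.30 and 7.53 against 8.58, 8.95 and 8.78, a log2 fold change of 1.47 (SE 0.17, adjusted p = 0.000878). The probes at positions 2089 and 2486 were dimmer and gave 1.10 (adjusted p = 0.0435) and 0.79 (adjusted p = 0.0397), neither past the test. Only 1 control array was well above background for the probe at 2089, against all 3 t(1;14) arrays, so the size of its difference is uncertain.

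VWF encodes von Willebrand factor, which endothelial cells store and release to tether platelets. It read 8.28, 8.73 and 8.62 in the controls and 9.20, 9.65 and 9.51 in t(1;14). The groups did not overlap, and the log2 fold change was 0.91 (SE 0.18, 1.88-fold, adjusted p = 0.00697 by limma). With the slide as a block the adjusted p was 0.0188, with t(1;14) higher on slides 1, 2 and 3 by 1.36, 0.79 and 0.58.

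CDH5 encodes VE-cadherin, the cadherin of endothelial junctions. It read 5.96, 6.75 and 7.21 in the controls and 7.63, 7.53 and 7.74 in t(1;14). All t(1;14) arrays were again above all controls. The controls spread over more than the log2 fold change of 0.99, which did not pass (SE 0.31, 95% CI 0.25 to 1.74, adjusted p = 0.0364 by limma). For 4 of the 6 genes the groups did not overlap, namely CNN1 and the 3 endothelial genes, where 62% of all tested probes did not overlap either.

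**Figure D1:**
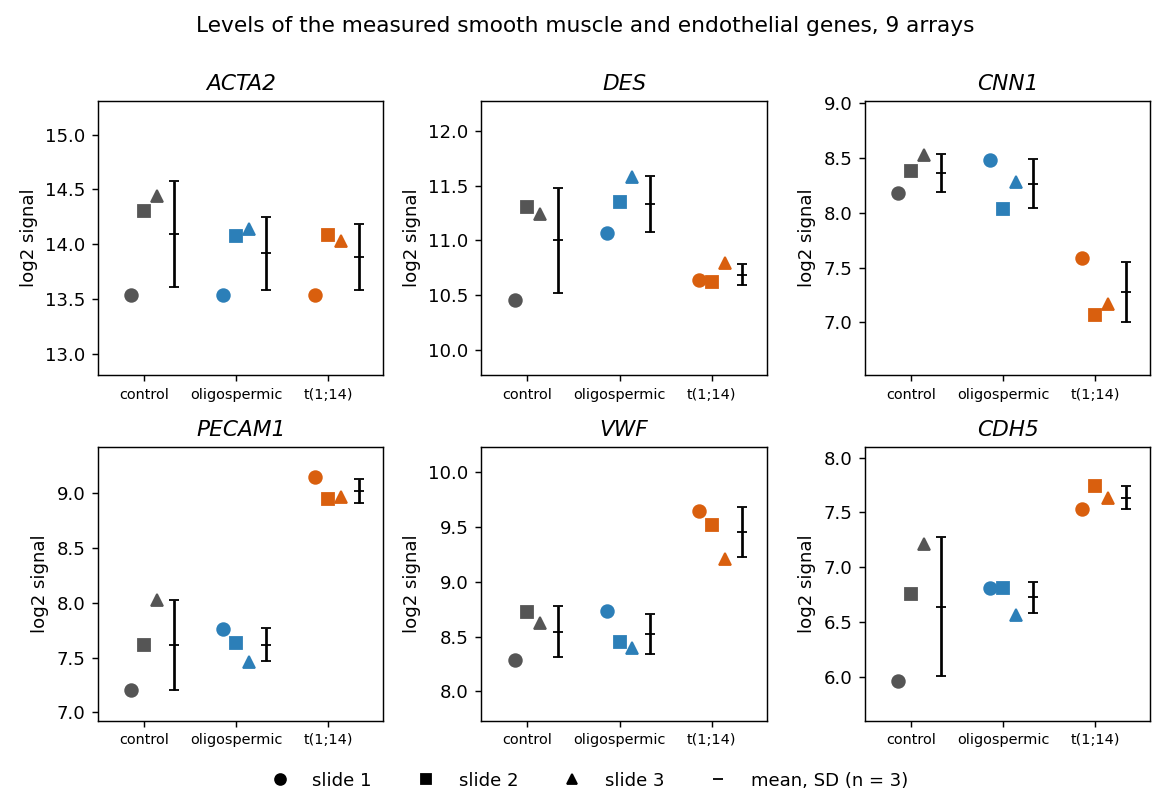
Log2 signal (y axis) of the brightest probe of each measured gene in the 3 arrays of each group (x axis), with the slide as the marker shape and the mean with SD (n = 3) in black; every panel spans the same log2 range. The t(1;14) arrays of PECAM1, VWF and CDH5 lie above all other arrays, those of CNN1 below all others, and the slide 1 arrays of ACTA2 lie at 13.54 in every group.

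Part of the spread within the controls was shared between genes. Control 1 was the lowest control for all 6 genes, and for 15 of the 16 probes well above background on all arrays, several of which measure 1 transcript. Over the 40643 probes tested, control 1 was the lowest control for 32.4%. Without control 1 the comparison of t(1;14) with control kept PECAM1 (log2 fold change 1.20, adjusted p = 0.00327 by limma) and CNN1 (-1.18, adjusted p = 0.00509), and VWF did not pass (0.78, adjusted p = 0.0124). Leaving out any other single array of that comparison, of t(1;14) or control, left 0 or 1 gene past the test: 0 without control 2, t(1;14) 1 or t(1;14) 3, and 1 without control 3 or t(1;14) 2. The directions of the 6 genes did not change in any of these fits.

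ACTA2 also followed the slide. Its brightest probe read 13.54 on the slide 1 array of each group and 14.03 to 14.44 on the other slides. The probes at positions 880 and 903 were likewise lowest on slide 1 in all 3 groups, and the one at 593 in 2 of 3. The probes at positions 211, 1437 and 1462 were highest on slide 1 in 2 groups and lowest there in the controls. Within slides, ACTA2 of t(1;14) differed from control by -0.0005, -0.22 and -0.41 at the brightest probe. With the slide as a block the SE fell to 0.13 and the adjusted p to 0.244.

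**Figure D2:**
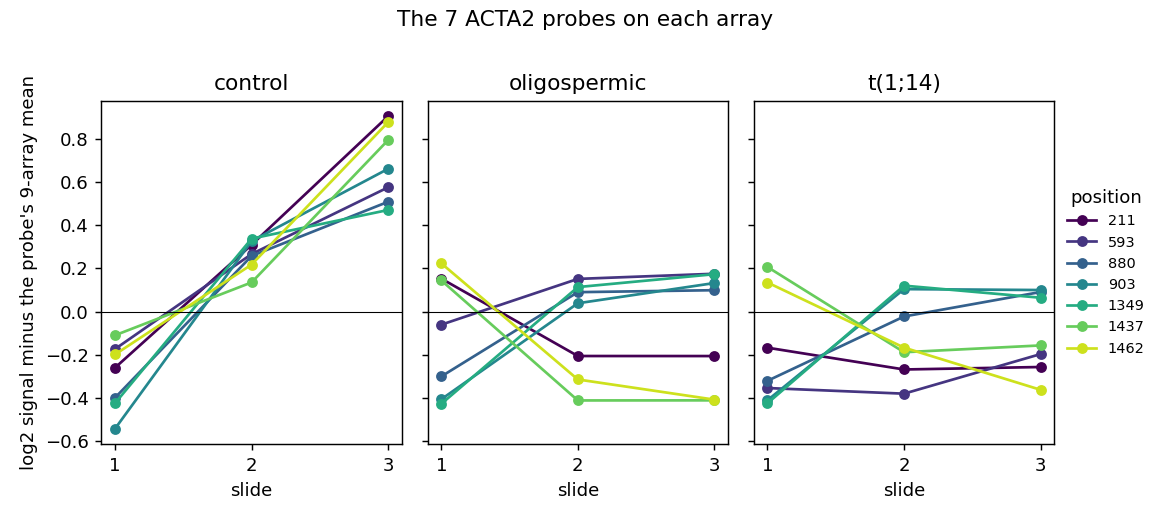
Log2 signal of the 7 ACTA2 probes minus each probe's mean over the 9 arrays (y axis), by slide (x axis) and group (panels), with a line for each probe named by its first base in the transcript. The probes at 880, 903 and 1349 are lowest on slide 1 in every group, while those at 1437 and 1462 are highest there in oligospermic and t(1;14).

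Oligospermic against control asked the same of the oligospermic boar, which has a normal karyotype. None of the 6 genes passed the test and none of their 17 tested probes did, where 0.0755% of all probes passed by limma (30 of 39713). At an unadjusted p under 0.05 the count was also 0 of 17 probes, where 9.84% of all probes lay. The log2 fold changes were -0.18 for ACTA2, 0.33 for DES, -0.10 for CNN1, 0.00 for PECAM1, -0.02 for VWF and 0.09 for CDH5. The groups overlapped for every gene, where 15.7% of all probes did not overlap. The intervals leave room for moderate differences: the 95% CI ran from -0.86 to 0.51 for ACTA2, -0.31 to 0.97 for DES, -0.50 to 0.30 for CNN1, -0.54 to 0.55 for PECAM1, -0.43 to 0.39 for VWF and -0.66 to 0.83 for CDH5. On slide 1 the oligospermic array exceeded control 1 for 5 of these genes, by up to 0.85 for CDH5, and on slide 3 it was lower for CDH5 by -0.64.

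The comparison of t(1;14) with oligospermic set the carrier against the oligospermic boar. Here 5 of the 6 genes passed by limma: PECAM1, VWF and CDH5 rose and CNN1 and DES fell in t(1;14). On the whole array 49.1% of 40567 probes passed, 27.1% higher and 22% lower. By probe 9 of 18 passed, or 50%, near the share of the array. The 9 include PECAM1 at position 2089, which was tested only because t(1;14) is high there. Of the 18, 12 did not overlap between the groups, where 70.9% of all probes did not. None of the 18 reached an absolute log2 fold change of 2, as 6.82% of all probes did. This comparison and the one with control share the t(1;14) arrays, so neither is independent of the other.

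For the smooth muscle genes, DES at its brightest probe read 11.07, 11.35 and 11.58 in oligospermic, above all t(1;14) arrays. The log2 fold change was -0.65 (SE 0.15, adjusted p = 0.00863 by limma), and the probes at 1336 and 1372 gave -1.18 (adjusted p = 0.00651) and -1.34 (adjusted p = 0.0011). CNN1 read 8.48, 8.04 and 8.28 in oligospermic and was lower in t(1;14) by -0.99 (SE 0.18, adjusted p = 0.00318). ACTA2 read 13.54, 14.08 and 14.14 and differed by -0.03 (95% CI -0.56 to 0.49, adjusted p = 0.902). The muscle genes therefore split, with calponin and desmin low in the carrier and the actin not distinguishable.

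For the endothelial genes no oligospermic array reached the level of a t(1;14) array. PECAM1 read 7.76, 7.63 and 7.46 in oligospermic, and t(1;14) was higher by 1.40 (SE 0.12, adjusted p = 1.23e-04 by limma). VWF read 8.74, 8.45 and 8.39, with a log2 fold change of 0.93 (SE 0.16, adjusted p = 0.00229). CDH5 read 6.81, 6.81 and 6.56, with a log2 fold change of 0.91 (SE 0.11, adjusted p = 6.53e-04). Within slides the difference was 1.32 to 1.50 for PECAM1, 0.81 to 1.06 for VWF and 0.73 to 1.06 for CDH5, and all 5 calls held with the slide as a block. With all 9 arrays in 1 model DES (adjusted p = 0.0411) and CDH5 (adjusted p = 0.02) no longer passed. Leaving out 1 array at a time, PECAM1 and CDH5 passed in all 6 fits, VWF in 4 (not without oligospermic 2 or t(1;14) 3), CNN1 in 3 (not without oligospermic 3, t(1;14) 1 or t(1;14) 3) and DES in 1, the fit without oligospermic 1. PECAM1 at position 2089 was well above background on all 3 t(1;14) arrays and on no oligospermic array, at 4.11, 4.20 and 4.22 against 3.27, 2.93 and 3.12. No fold is given for it in the text because the dim group gives only a bound.

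**Figure D3:**
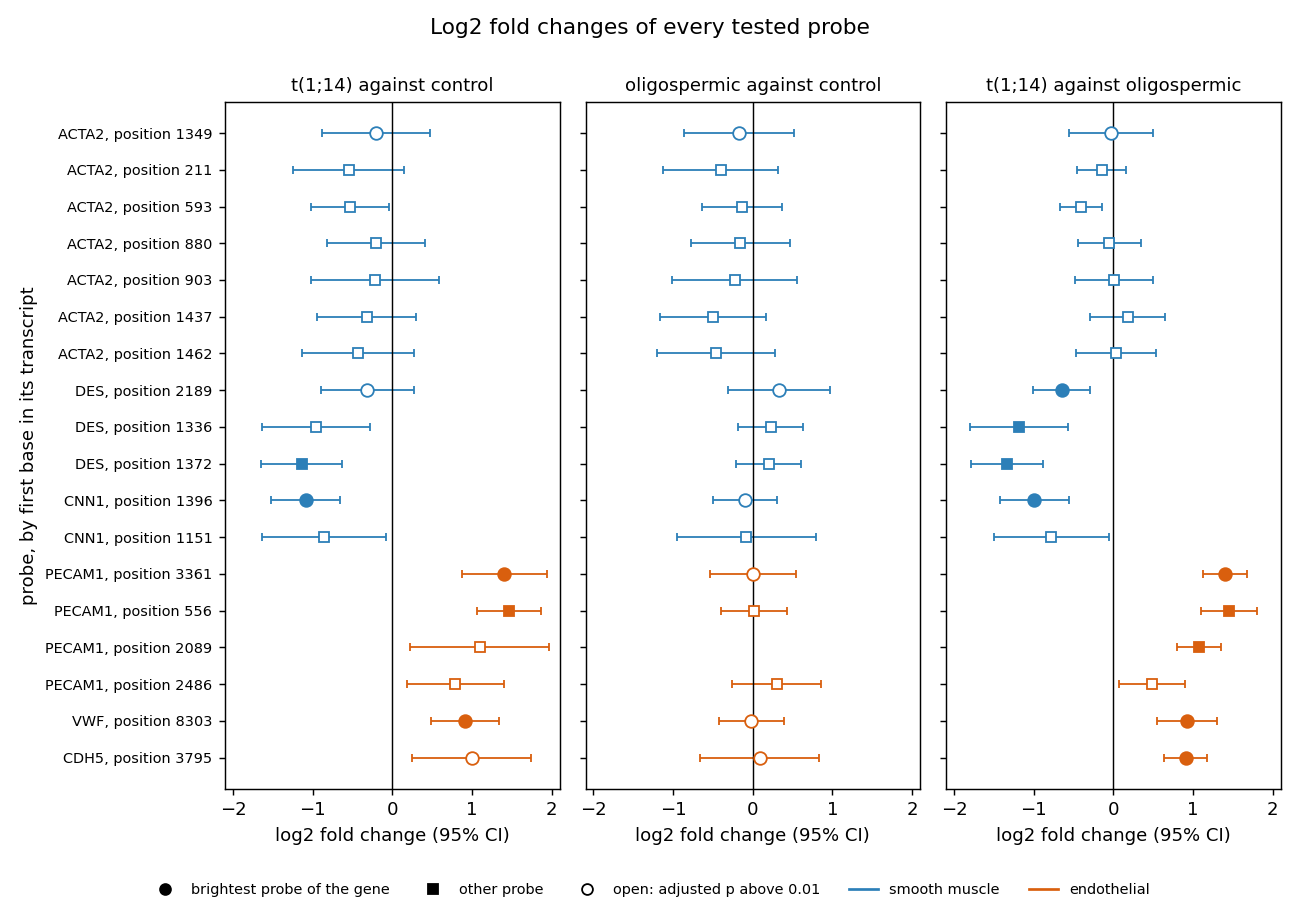
Log2 fold change with 95% CI (x axis) of every tested probe of the 6 genes (y axis, by gene and first base in the transcript) in the 3 comparisons; circles are the brightest probe of each gene, squares other probes, and filled symbols passed at an adjusted p of at most 0.01. The endothelial probes lie right of 0 and the DES and CNN1 probes left of 0 in both comparisons with t(1;14), and no probe is filled between oligospermic and control.

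By level, then, each gene has an order over the groups. PECAM1, VWF and CDH5 were highest in t(1;14), and oligospermic and control did not differ beyond their spread. CNN1 was lowest in t(1;14), with oligospermic and control likewise not distinguishable. Against control CDH5 did not pass, and VWF and CNN1 did not with the slide as a block. DES was lowest in t(1;14), control in the middle and oligospermic highest, of which only the outer pair passed at the brightest probe. For ACTA2 no pair of groups was separated.

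Over the 9 arrays the endothelial genes varied alike, and the muscle genes less so. Likeness was measured as the root mean square difference between levels centred on each gene's mean, in log2 units, as a description over arrays that share slides. The endothelial genes lay within 0.26 to 0.28 of each other. Among the muscle genes ACTA2 lay at 0.31 from DES, DES at 0.43 from CNN1 and ACTA2 at 0.59 from CNN1, which is no nearer than ACTA2 lay to CDH5 (0.57). CNN1 and PECAM1 were farthest apart at 1.17.

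Among the 5473 other named genes, those whose centred level came closest to PECAM1 were TBX2 (0.13), RAMP2 (0.13), SUCLG2 (0.14), SLA-DRB1 (0.15) and POLR3GL (0.17), where the median gene lay at 0.72. RAMP2 is a partner protein of the adrenomedullin receptor that is known from endothelium, and SLA-DRB1 is a class II antigen-presenting molecule of the pig. Of these 5, only RAMP2 is on the wider endothelial list described below. For ACTA2 the closest were CDHR4 (0.10), PRPF3 (0.14), RPS6 (0.14), SLC16A5 (0.14) and SLC30A3 (0.15), with a median of 0.53. None of these 5 is known chiefly from muscle, and the ACTA2 probe they follow varied more between slides than between groups.

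A wider list of 51 genes of the contractile apparatus, its control and the pericytes around capillaries held 39 genes with a probe. Against control, 8 of the 32 tested genes were higher in t(1;14) and 2 lower by limma, with a median log2 fold change of 0.32 beside 0.14 for all probes. Against oligospermic, 15 of 34 were higher and 3 lower. Between oligospermic and control 0 of 33 passed, and 2 had an unadjusted p under 0.05. The share of genes past the test was 31.2% against control, equal to that of the array, and 52.9% against oligospermic, near the 49.1% of the array.

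At the brightest probe of each gene, the contractile list rose most for VIM, CNN3 and TPM4. VIM, the vimentin filament found in most mesenchymal cells and in Sertoli cells, read 12.12, 12.71 and 12.37 in the controls and 14.52, 14.44 and 14.57 in t(1;14), a log2 fold change of 2.11 (SE 0.17, adjusted p = 2.65e-04 by limma). CNN3, the calponin that non-muscle cells also make, rose by 1.62 and TPM4, a cytoskeletal tropomyosin, by 1.37. CALD1, MYL9, MYL6 and VCL also passed, at 0.77 to 1.19. For CALD1, the actin-binding caldesmon, the second probe passed too and gave 1.73 against control and 2.09 against oligospermic, above CNN3 and TPM4, so the order depends on the probe. Probes of VCL disagreed, since another fell by -0.77 and passed as well. PLN, the phospholamban that restrains calcium uptake in muscle, fell by -1.12. All 7 PLN probes were tested and only the brightest passed, with values from -1.12 to -0.59.

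Against oligospermic VIM rose by 2.62, CNN3 by 1.84 and TPM4 by 1.62, and 8 further genes of the contractile list by 0.55 to 1.01, while PDLIM7, an adaptor of actin filaments, fell by -2.37 and PLN by -0.82. PDLIM7 read 10.12, 5.97 and 10.11 in the controls and 7.85, 7.81 and 7.59 in t(1;14), so control 2 stood alone below the carrier and the comparison with control did not pass.

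MYOCD, the coactivator that drives smooth muscle genes together with serum response factor, fell furthest among the genes that control contraction. It read 8.29, 8.68 and 7.91 in the controls, 8.33, 8.19 and 8.32 in oligospermic and 6.36, 6.25 and 6.45 in t(1;14). The log2 fold change was -1.94 against control (SE 0.21, adjusted p = 7.01e-04 by limma) and -1.93 against oligospermic (adjusted p = 2.4e-05). Its other probe fell by -2.94 and -3.50. In the same list ROCK2, a kinase that sustains contraction, rose by 1.07 against control and 1.10 against oligospermic. EDN1, the endothelial peptide that constricts vessels, was well above background on 2 t(1;14) arrays and on no other array. It read 3.78, 3.65 and 4.46 in t(1;14) and 2.54, 3.13 and 2.92 in oligospermic, and since it was tested only through the group in which it is high, its place among the genes counted as higher than in oligospermic is no support.

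Of 8 pericyte genes 7 had a probe and 3 or 4 were tested. None passed against control. Against oligospermic RGS5, a signalling regulator of pericytes, rose by 1.49 (adjusted p = 0.00112 by limma) and ANPEP, a membrane peptidase, by 0.94 (adjusted p = 3.59e-04). The other tested RGS5 probe gave 0.74 and did not pass. The platelet-derived growth factor receptor PDGFRB had a log2 fold change of -0.90 against control (adjusted p = 0.0494) and -1.08 against oligospermic (adjusted p = 0.0709).

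A wider endothelial list of 53 genes held 31 with a probe. Against control 4 of 28 tested genes were higher in t(1;14) and 2 lower by limma, with a median log2 fold change of 0.19, and against oligospermic 9 of 28 were higher and 3 lower. Between oligospermic and control 0 of 27 passed, with 2 at an unadjusted p under 0.05. The share past the test was 21.4% against control and 42.9% against oligospermic, beside 31.2% and 49.1% of the array. With the slide as a block it was 14.3% and 64.3%, beside 24.2% and 56% of the array, so against oligospermic the order of list and array turned round. The members of the wider list moved in both directions.

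The brightest probe of CALCRL, the receptor that pairs with RAMP2 to bind adrenomedullin, was near background outside t(1;14). It read 3.32, 3.79 and 4.02 in the controls and 6.27, 6.81 and 6.55 in t(1;14), a log2 fold change of 2.83 (SE 0.23, adjusted p = 2.59e-04 by limma) that is uncertain in size, since 1 of 3 control arrays was well above background. Without the t(1;14) arrays this probe would not have met the filter on dim probes, so its passing is no support for a rise beyond the levels given. All 3 CALCRL probes passed in both comparisons with t(1;14). Of these, 1 met the filter without the t(1;14) arrays, and it gave smaller values, 1.75 against control and 1.98 against oligospermic. VCAM1, an adhesion molecule for leukocytes, rose by 2.09, RAMP2 by 1.21 and THBD, the anticoagulant thrombomodulin, by 1.14.

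PROX1, the transcription factor known for lymphatic endothelium, fell most, from 10.70, 10.88 and 10.72 in the controls to 7.84, 7.79 and 7.70 in t(1;14). Its log2 fold change was -2.99 against control (SE 0.11, adjusted p = 1.24e-04 by limma) and -3.22 against oligospermic, and a second of its 3 probes passed as well. SOX17, a factor of arterial endothelium, fell by -0.63 on its brightest probe while its other probe gave 0.35. Against oligospermic THBD rose by 1.39, VCAM1 by 2.28 and CALCRL by 3.04, the last with 1 of 3 oligospermic arrays well above background and so equally uncertain in size, whereas MMRN2, an endothelial matrix protein, fell by -1.18 and SELP, the P-selectin of endothelium and platelets, by -0.88. A further 6 genes of the list were higher than in oligospermic by 0.72 to 1.26. Probes of MMRN2 disagreed, with values from -1.18 to 0.20. For some genes the brightest probe did not pass and another did. Against control FLNA, the actin crosslinker filamin A, had such a probe at -1.11 and F8, coagulation factor VIII, at -1.46. Against oligospermic there were 3 such genes in the smooth muscle list, all lower, and 4 in the endothelial list, 3 lower and 1 higher. The 1 higher was TEK, at 1.03. Of its 3 tested probes only 1 met the filter without the t(1;14) arrays, so this pass is no firm support.

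Factors that act on vessels moved in both directions. Of 7 tested, 2 were higher and 2 lower in t(1;14) than in control, and 3 higher and 2 lower than in oligospermic, where 31.2% and 49.1% of all probes passed. VEGFA, the main growth factor for endothelium, rose by 1.38 (SE 0.18, adjusted p = 0.00166 by limma) and HIF1A, the oxygen-regulated transcription factor, by 0.88. ANGPT2, which loosens vessels, fell by -1.75 (SE 0.12, adjusted p = 1.8e-04) with its other probe at -1.72, and PDGFC fell by -0.72. The second VEGFA probe gave 0.47 and the second HIF1A probe 0.20, neither past the test. Against oligospermic VEGFA, HIF1A and TGFB1 rose by 1.60, 0.71 and 0.45 at their brightest probes, and ANGPT2 and ANGPT1 fell by -1.21 and -0.48. The other TGFB1 probe gave -0.85 and did not pass. With 1 oligospermic array well above background, the VEGFA probe was tested there only through t(1;14), where it is high. Its rise is thus uncertain in size, and its place among the genes counted as higher than in oligospermic is no support.

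**Figure D4:**
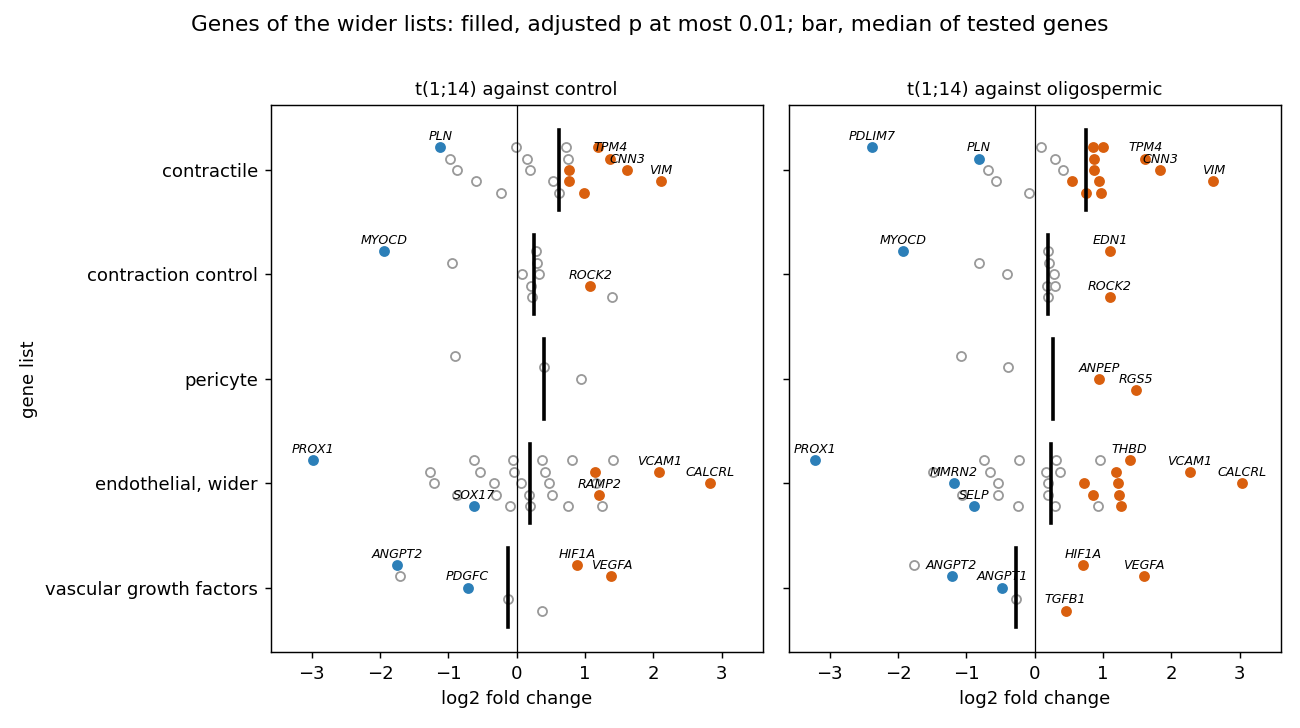
Log2 fold change (x axis) of the tested genes of 5 wider lists (y axis) for t(1;14) against control and against oligospermic; filled points passed at an adjusted p of at most 0.01, open points did not, and bars are medians of the tested genes. Each list holds genes on both sides of 0, with PROX1 and MYOCD low and CALCRL, VCAM1 and VIM high in both comparisons.

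Some lists of markers of other testis cells differed between these groups and others did not. Beside the counts that follow, 31.2% of all probes passed against control, 5.61% with a log2 fold change of at least 2 in size, and 49.1% against oligospermic. Of 6 Leydig genes 5 rose in t(1;14) against control by limma, 4 of them with a log2 fold change of at least 2, and the mean level of the list was 12.43 to 12.61 in t(1;14) against 10.34 to 10.62 in control and 10.49 to 10.96 in oligospermic. The spermatid list had a mean level of 14.18 to 14.24 in t(1;14) and 15.10 to 15.28 in control, with 2 of 4 genes lower. The Sertoli list stayed at 9.05 to 9.24 in t(1;14), 9.05 to 9.43 in control and 9.03 to 9.18 in oligospermic, with 1 of 6 genes lower in t(1;14) than in control. Against control the spermatogonium list had 1 gene higher and 1 lower of 3 in t(1;14), and the spermatocyte list 1 higher and 1 lower of 2. Against oligospermic the spermatogonium list had 2 higher and 1 lower of 3, and the spermatocyte list 2 higher of 2. In that comparison 4 of 6 Leydig genes were higher in t(1;14), and 2 of 4 spermatid and 1 of 6 Sertoli genes lower. The spermatocyte list had its lowest mean level in oligospermic, at 9.62 to 9.95 against 10.58 to 11.02 in control and 10.75 to 10.95 in t(1;14), although 0 of its 2 genes passed between oligospermic and control by limma, with 1 at an unadjusted p under 0.05. Of the immune list, the monocyte and macrophage marker CD14 rose by 1.30 and CD163 gave 0.50 (adjusted p = 0.162), while CD3E and CD4 were not well above background on any array. For the fibroblast list 0 of 3 genes passed, with 1 at an unadjusted p under 0.05, and for the skeletal muscle list 0 of 2, likewise with 1. These counts take the brightest probe of each gene, and the probes of ACTA1, the skeletal muscle actin, disagreed: 9 of its 16 probes passed against control, with log2 fold changes of -2.74 to -1.17, while the brightest did not. For COL1A2, a fibrillar collagen, the dimmer of 2 probes passed at 0.75, with 1 of 3 control arrays well above background. It met the filter only through t(1;14), where it is high, so this pass is no support. Against oligospermic both tested immune genes passed, CD14 at 1.36 and CD163 at 1.05, and 1 of 3 fibroblast genes did, COL1A2 at 1.72 on its brightest probe. HBB, the haemoglobin of red cells, gave -1.002 against control (adjusted p = 0.268) and fell by -1.87 against oligospermic (adjusted p = 0.0059). The part of these other cells in the levels of the 6 genes was not tested.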

How the data were processed

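Expression was measured in testicular biopsies on 9 single-colour Agilent custom porcine arrays, 3 per group, taken from the labels. The authors extracted total RNA, labelled it with cyanine 3 and read the spots with Feature Extraction 11.5.1.1. The spot values they deposited are intensity units, background-subtracted and detrended by that software but not normalized between arrays. They also deposited log2 values for 38759 probes, 18 of them among the 21 probes used here; the sorted columns are equal to within 0.0016, as quantile normalization leaves them, and they served as an alternative. Their filter kept spots of sufficient quality in at least 2 of 3 arrays.

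The processed intensity of 60889 non-control probes was put on the log2 scale, and the 9 arrays were quantile normalized together. Probes well above background without an outlier flag on at least 2 of 3 arrays of at least 1 of the groups compared were tested with lmFit and eBayes of limma (version 3.58.1, under R 4.3.3), on the 6 arrays of each pair, with Benjamini-Hochberg adjustment over all tested probes. The threshold for passing was an adjusted p of 0.01, and the study's methods add a log2 fold change of 2 or more in size. Slides were read from the array barcodes. Of each wider list, the genes named are the 3 highest and 3 lowest log2 fold changes among those past the test, with others of the same list given by their range. Each list gene stands by its brightest probe, and MYLK was found by its description alone. Other scalings, background correction, filters, blocks for slide and replicate number, a single model, other probes and leaving out each array were tried. The code was tested on simulated data. The genes and lists were chosen with earlier results of these data known. No genome, promoter or protein sequences were used here, so positions are those the array files state for a probe's first base in its transcript. Figures were drawn with matplotlib.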

Additional observations from a re-analysis of the deposited data

Results flagged for a closer look

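Outside the rule that chose the probes, 2 further spots carried exactly the 60 bases of a member's probe under a sequence number in place of a gene symbol. They repeat the PECAM1 probe at position 2486 and the CDH5 probe at position 3795, and they are all the repeats that a search by sequence found. They are given here because no comparison above uses them and their t(1;14) signal lay above that of every control array. The repeat of the PECAM1 probe read 5.52 to 5.84 in t(1;14) and 4.66 to 4.91 in control, a log2 fold change of 0.87 (SE 0.14, adjusted p = 0.00324 by limma), where the probe under the gene's own name gave 0.79 and did not pass. On single arrays the 2 PECAM1 spots differed by -0.33 to 0.35 in log2 signal. The repeat of the CDH5 probe read 7.53 to 7.77 in t(1;14) and 5.86 to 7.20 in control, a log2 fold change of 1.00 (SE 0.34, adjusted p = 0.047), and differed from its partner by -0.10 to 0.07. Against oligospermic both repeats passed, at 0.73 and 0.84, and between oligospermic and control neither did. The spots share an RNA sample and an array with their partners, so they bear on spot noise and not on biopsies.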

How the results depend on the processing

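For t(1;14) against control, 3 member genes passed; 1 did with the slide as a block and 0 with the replicate block, under which 6 genes of the wider smooth muscle list passed in place of 10. For t(1;14) against oligospermic, 5 member genes passed, 2 with the replicate block and 3 with all 9 arrays in 1 model. Leaving out 1 array at a time gave 0 to 2 member genes, 6 to 10 wider smooth muscle genes and 3 to 7 wider endothelial genes against control, and 2 to 5, 15 to 19 and 9 to 15 against oligospermic; oligospermic against control gave 0 throughout. Of the values that changed sign, none was past the test: oligospermic against control gave -0.0128 for PECAM1 with scaling to the 75th percentile and 0.0071 for VWF with normexp, and t(1;14) against oligospermic gave 0.0348, 0.18 and 0.0096 for the ACTA2 probes at positions 1462, 1437 and 903. Leaving out 1 array, oligospermic against control ranged from -0.45 to 0.0152 for ACTA2, -0.20 to 0.0191 for CNN1, -0.20 to 0.21 for PECAM1, -0.15 to 0.0736 for VWF and -0.25 to 0.37 for CDH5, and t(1;14) against oligospermic from -0.22 to 0.14 for ACTA2. Without the filter on dim probes VWF against control and DES against oligospermic no longer passed (adjusted p = 0.0134 and 0.0176 by limma). The cause of these changes was not tested. Over all probes, 12668 passed for t(1;14) against control without a block and 5288 with the replicate block, 30 and 0 for oligospermic against control, and 19916 and 12273 for t(1;14) against oligospermic. Replicate numbers did not pair the t(1;14) arrays, whose deviations correlated at -0.43 to 0.14 with those of the same number; between oligospermic and control, where numbers and slides coincide, the correlation was 0.10 to 0.49. Arrays of the same slide correlated at 0.11 to 0.35 for t(1;14) with control and 0.30 to 0.50 with oligospermic, and the slide as a block gave 9848 and 22699 probes past the test. Quantile normalization over 6 arrays, the authors' values, the filter in both groups and the other scalings changed no call of a member gene in any comparison. Dim probes limit CDH5 and VWF, which rest on 1 measured probe each.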
